A study of Mus musculus with 6 samples.

Results

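Expression of 7 genes of clot formation and clot lysis was measured in scratched mouse fibroblasts with and without dermatan sulfate. The genes were taken by their symbol from the 84 wound healing genes of a real-time PCR array. For clot formation they are F3, F13a1 and Fga, and for clot lysis Plg, Plat, Plau and Plaur. All 7 accessions matched a RefSeq mouse gene of the same symbol.

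The cells were primary dermal fibroblasts explanted from neonatal C57BL/6 mice, used between passages 3 and 5, grown to a monolayer and scratched. The 3 control cultures received plain DMEM and the 3 DS cultures received 2,4-DS, a dermatan sulfate isolated from the ascidian Styela plicata, at 50 µg/mL. Mitomycin C, which blocks cell division, was present in both groups. That dose is from the methods. The sample labels list concentrations from 10 to 1000 µg/mL without saying which one a sample received, and the time of exposure is 24 h or 72 h in the labels and 48 h in the methods. The labels call the samples biological triplicates but do not say whether they came from separate animals, so the tests measure the spread between these cultures. In RNA from whole cultures, fewer cells of a type and less RNA per cell cannot be told apart.

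Clotting starts when tissue factor, the cell surface protein encoded by F3, binds factor VII from plasma, and it ends when thrombin turns fibrinogen into fibrin and factor XIII, whose catalytic subunit is encoded by F13a1, cross-links the fibres. Fibrin is then digested by plasmin, which the activators tPA (Plat) and uPA (Plau) cut from plasminogen (Plg), and the receptor uPAR (Plaur) holds uPA at the cell surface. Fibrinogen and plasminogen are made mainly in the liver, whereas tissue factor, uPA and uPAR are known from fibroblasts and other migrating cells of a wound.

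Each array gives a CT, the PCR cycle at which a well crosses the fluorescence threshold, so early wells held more template, with a factor of 2 per cycle at full efficiency. A CT over 36 counts as not detected. Of 89 gene assays, 25 or 26 were detected in each control array and between 58 and 60 in each DS array. The 3 genes used for normalization, Egfr, Ccl7 and Hsp90ab1, had a mean CT between 30.2 and 30.4 in the 6 arrays. The study reports that its software chose them because the treatment did not alter them, so that choice favoured an even mean. Singly, Egfr went from 32.6 in control to 31.9 in DS without overlap, Ccl7 from 30.6 to 30.9 and Hsp90ab1 from 27.6 to 28.0. Several control wells differed between the groups. The genomic DNA control MGDC, which detects mouse genomic DNA left in the RNA, gave no CT in the control arrays and a CT of 33.08, 34.02 and 33.78 in DS replicates 1, 2 and 3 (exact permutation test, two-sided p = 0.1, the smallest that 3 arrays against 3 allow). The study reports DNase treatment of all samples and a separate quality control run on both groups, which found no genomic DNA. The reverse transcription control RTC is 1 assay in 3 wells, but its wells did not give like values within an array. In control replicate 1 they gave 22.74, 38.03 and no CT, and in the other 2 control arrays 1 well gave 21.68 and 23.0 and the other 2 wells none. In the DS arrays that same well gave 39.69, none and 41.0, while the other wells gave CT values from 28.95 to 32.77, so the wells of DS replicates 1 and 3 lay 10.1 and 12.1 cycles apart. The 3 positive PCR control wells gave no CT in any array. Of the fibroblast markers Col1a1, Col1a2 and Col3a1, none gave a CT in a control array, and in DS their CT was 24.7 ± 0.478, 23.1 ± 0.301 and 29.9 ± 0.130 (SD, n = 3). These 3 markers of the labelled cell type were thus absent from the control arrays. Of the other collagen genes, Col5a2 (23.31 to 24.05), Col4a1 and Col4a3 were detected in every control array, and Col14a1, Col5a1 and Col5a3 in none. Of the other markers, the epithelial gene Cdh1 and the cardiac muscle gene Actc1 were detected in no array, the T cell gene Il2 gave no CT, and Cd40lg and the neutrophil gene Ctsg were detected only in DS, at 31.9 ± 0.476 and 34.8 ± 0.740 (SD, n = 3). The smooth muscle gene Acta2 gave no CT and Tagln gave 12.9 ± 1.06 in DS only. The part of these control wells and markers in the results on clotting genes was not tested. Whether a gene without CT in the control arrays was absent from the cells or not measured by those arrays cannot be told apart, and each fold change against control holds only if the control arrays and their wells are as labelled.

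RefSeq promoters (build GRCm38.p6) were at hand for 4 of the 7 genes, F3, F13a1, Fga and Plaur, and were searched for 4 motifs. The window runs from 250 bases before the annotated start to 50 after it, and motifs were read on both strands. The AP-1 motif TGACTCA, read TGAGTCA on the other strand, is the site of Fos and Jun factors. It stands in the promoters of F3, from −135 to −129, and Plaur, from −69 to −63, and in 5.20% of 32851 mouse promoters of the same length. GGGCGG, the GC box read by Sp1, occurs in F3 and Plaur 3 times each and in 35.7% of all promoters. In Plaur the matches from −105 to −100 and from −100 to −95 share a base. GTTAAT, part of the site of the liver factor HNF1, occurs in Fga from −43 to −38 (7.10% of all), and TATAAA on the reverse strand in F3 from 44 to 49 after the start (13.6% of all). None of the 4 motifs was found in the promoters of F13a1, which has 2 annotated starts. The 150 bases before the start are shown for the genes with an AP-1 or HNF1 match and for the outer start of F13a1, 5′ to 3′ on the gene's strand, with AP-1 and HNF1 letters in capitals. They lie at chr3:121723387-121723536 (plus strand) for F3, chr7:24462333-24462482 (plus) for Plaur, chr3:83026003-83026152 (plus) for Fga and chr13:37050245-37050394 (minus) for F13a1. The matches are a description of these letters, and shared regulation of these genes was not tested.
F3: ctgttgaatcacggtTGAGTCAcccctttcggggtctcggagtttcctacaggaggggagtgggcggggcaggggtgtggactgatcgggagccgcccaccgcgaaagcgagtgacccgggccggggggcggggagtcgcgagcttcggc
Plaur: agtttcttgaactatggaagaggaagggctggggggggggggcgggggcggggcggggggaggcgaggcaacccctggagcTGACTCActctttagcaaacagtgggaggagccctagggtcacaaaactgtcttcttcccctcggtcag
Fga: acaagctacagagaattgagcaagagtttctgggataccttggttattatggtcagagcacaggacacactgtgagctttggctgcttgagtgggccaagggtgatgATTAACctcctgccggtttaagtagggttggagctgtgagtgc
F13a1: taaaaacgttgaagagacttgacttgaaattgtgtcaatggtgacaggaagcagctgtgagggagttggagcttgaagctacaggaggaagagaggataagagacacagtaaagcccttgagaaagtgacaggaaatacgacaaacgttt

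The 7 genes differed in their level in DS. All 7 were detected in each of the 3 DS arrays and none in a control array, a pattern that 37 of the 84 wound healing genes shared (44%). F13a1, F3 and Plaur came up in DS near cycle 26 or 27, Plg and Fga near 32, and Plat and Plau at 34 or later. Relative to the 3 normalizing genes, 6 of the 7 were called higher in DS (limma, adjusted over the 64 genes detected in at least 1 array, threshold 0.05), where 71.9% of all tested genes were called higher and 20.3% lower. The exception was Plau. The 7 genes entered the test through their DS values alone, so a lower call could not arise with these normalizing genes and the count of higher calls supports nothing about the genes. Their median log2 fold change was 3.63, against 4.40 over all 64 genes tested. The order of these medians depended on the cutoff. It was 5.26 against 3.86 with a cutoff of 35, where Plau left the test, and 7.63 against 6.07 with a cutoff of 40. With the 3 normalizing genes, each fold change of the 7 genes below is a bound, computed against a control CT of 36, because no control array reached the cutoff. The control values of a gene are thus 1 constant less the normalizing genes, and the standard errors and adjusted p hold the spread of the DS arrays and of the normalizing genes, but none of the gene in control. The exact permutation test on the same values gave a two-sided p of 0.1 for each of the 6 called genes, the smallest possible with 3 arrays a group, and 0.3 for Plau.

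Among the genes of clot formation, F13a1 gave the earliest CT. It read 26.99, 25.12 and 25.63 in DS replicates 1, 2 and 3, and the control arrays gave 36.67 in replicate 1 and none in the other 2. It was the only one of the 7 genes with any CT in a control array. Its level in DS was at least 1080-fold higher than the cutoff allows for control, a log2 fold change of at least 10.08 (standard error 0.48, adjusted p = 8.38e-08, limma).

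F3 gave 26.85, 27.0 and 25.81 in the DS arrays and no CT in the control arrays. Its DS arrays lay within 1.19 cycles of each other. The groups did not overlap, but every control array stands at the cutoff, so this adds nothing to the DS values. The bound was 9.44 on the log2 scale, or 693-fold (standard error 0.38, adjusted p = 2.78e-08, limma).

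Fga, the alpha chain of fibrinogen, was much later. Its CT was 32.54, 33.18 and 31.73 in DS and absent in control. The bound was 3.51 on the log2 scale, or 11.4-fold (adjusted p = 3.56e-05, limma). It was below the median of all tested genes at this cutoff. With a cutoff of 40 it was above that median (7.51 against 6.07), so the bound does not place the change of Fga among those of other genes.

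Among the genes of clot lysis, the receptor gene Plaur stood apart from the rest. Its CT was 27.28, 25.98 and 28.02 in DS, the widest spread of the 7 genes, and no control array gave one. The log2 fold change was at least 8.90, or 477-fold (standard error 0.50, adjusted p = 2.46e-07, limma). The methods' own test, run on the linear values of each gene alone, did not call Plaur.

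Plasminogen itself was close to Fga. Plg gave 32.23, 33.01 and 31.84 in DS, which is a log2 fold change of at least 3.63, or 12.4-fold (standard error 0.37, adjusted p = 1.44e-05, limma). The groups did not overlap, which follows from DS values well before the cutoff that stands for every control array.

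The activators came last. Plat gave 33.95, 34.12 and 35, all in DS, and a bound of 1.63 on the log2 scale, or 3.10-fold (standard error 0.35, adjusted p = 0.00196, limma). With a cutoff of 35 in place of 36 it was not called (0.63, adjusted p = 0.105, limma). Plau gave 35.39, 35.7 and 36, so DS replicate 3 sat on the cutoff and the groups overlapped after normalization. Its bound of 0.29 was not called (standard error 0.30, adjusted p = 0.358, limma). At this cutoff a difference in Plau was not detectable, which does not show that the groups were alike.

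**Figure D1:**
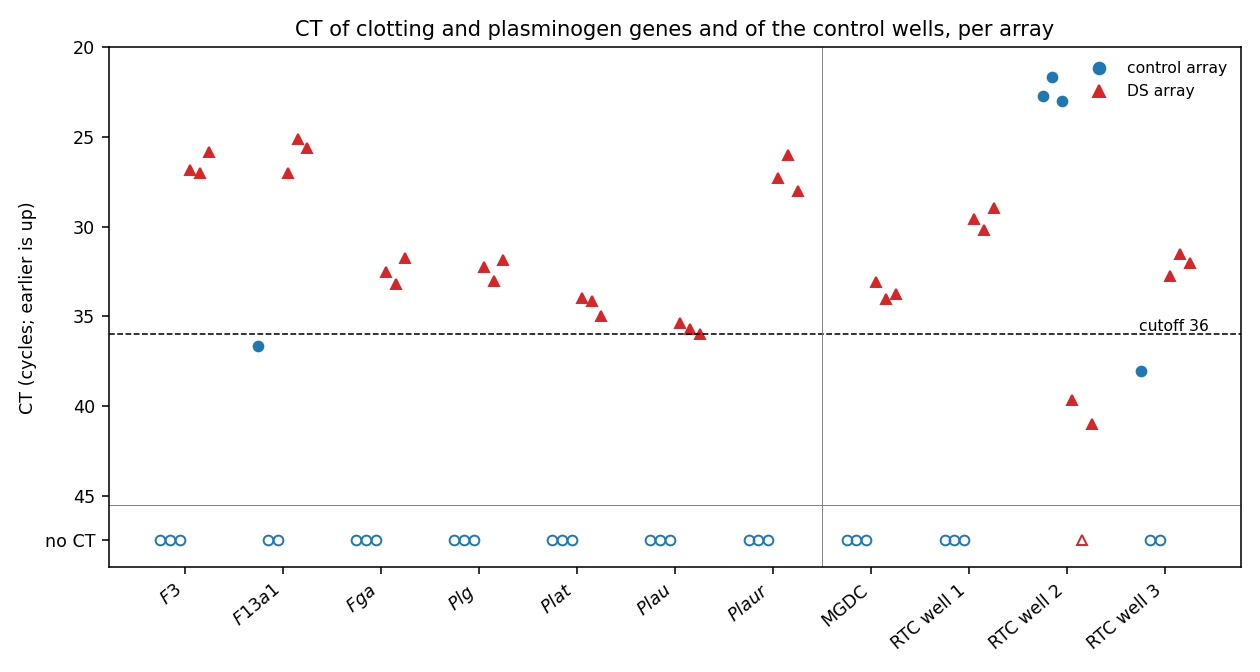
CT in cycles of the 7 genes, of the genomic DNA control MGDC and of the 3 wells of the reverse transcription control RTC (earlier is up), with 1 point for each of the 3 control arrays (circles) and 3 DS arrays (triangles); open symbols in the lowest strip are wells without a CT and the dashed line is the cutoff of 36. F13a1, F3 and Plaur sit between 25.12 and 28.02 in DS, Plg, Fga, Plat and Plau between 31.73 and 36 and MGDC between 33.08 and 34.02, and the RTC wells differ among themselves.

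The comparison with the genomic DNA control asks how far each assay was from the MGDC well of the same array. It uses no normalizing gene. Over the 58 gene assays detected in all 3 DS arrays, the CT of MGDC minus the CT of the gene was tested against 0 with limma. F13a1 was 6.09, 8.90 and 8.15 cycles before MGDC in DS replicates 1, 2 and 3, F3 was 6.23, 7.02 and 7.97 cycles before it, and Plaur 5.80, 8.04 and 5.76. Their means of 7.71, 7.07 and 6.53 cycles (95% intervals 6.54 to 8.88, 5.90 to 8.24 and 5.36 to 7.70) correspond to 210-, 135- and 92.6-fold more template than MGDC at equal efficiency.

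Plg was 0.85, 1.01 and 1.94 cycles before MGDC, a mean of 1.27 cycles (95% interval 0.10 to 2.44, adjusted p = 0.0385, limma), or 2.41-fold. This call was lost without DS replicate 2 (1.395 cycles, adjusted p = 0.0774, limma) or without DS replicate 3 (0.93 cycles, adjusted p = 0.315, limma), and against the earliest MGDC value of the 3 arrays (0.72 cycles, adjusted p = 0.0995, limma). Fga was earlier by 0.54, 0.84 and 2.05 cycles, a mean of 1.14 (95% interval −0.03 to 2.31) that was not called (adjusted p = 0.0602, limma). Plat was later than MGDC in every DS array, by a mean of −0.73 cycles (95% interval −1.90 to 0.44, adjusted p = 0.230, limma). Plau was called later than MGDC, at −2.31, −1.68 and −2.22 cycles (mean −2.07, 95% interval −3.24 to −0.90, adjusted p = 8.09e-04, limma), and had the latest mean CT of the 58 assays.

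In all, 4 of the 7 genes were called earlier than MGDC (F13a1, F3, Plaur and Plg) against 82.8% of the 58 assays, and 1 later (Plau) against 5.17%. The median distance was 1.27 cycles over the 7 genes and 4.12 over the 58 assays. Limma estimated 1 spread common to all assays here, and all of them share the MGDC well of their array, so these adjusted p rest on the pooled spread and not on 3 arrays alone. For a single gene, an exact sign test of 3 arrays cannot go below a two-sided p of 0.25. The genomic DNA assay and the gene assays have amplicons of their own, whose efficiencies and copies per genome are not given in the sources used here. The distances from MGDC compare template only if these are alike and the wells of the DS arrays are as labelled.

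On the scale of the DS against control comparison, MGDC itself moved by at least 2.36 (log2). The bounds of Plat (1.63) and Plau (0.29) were below that and those of Fga (3.51) and Plg (3.63) above it. After the MGDC signal of each array was subtracted from every gene, Fga remained called at 2.71 (adjusted p = 0.00228, limma) and Plg at 3.05 (adjusted p = 2.90e-04, limma), and Plat and Plau had no detected value in any array. The subtraction also lowered the normalizing genes in the DS arrays, which by itself raises a fold change. F13a1, F3 and Plaur were thus above their bounds without subtraction, at 10.35, 9.71 and 9.16. The values of Fga and Plg hold the same shift. The part of genomic DNA in the values of Fga, Plg, Plat and Plau was not tested beyond these comparisons.

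**Figure D2:**
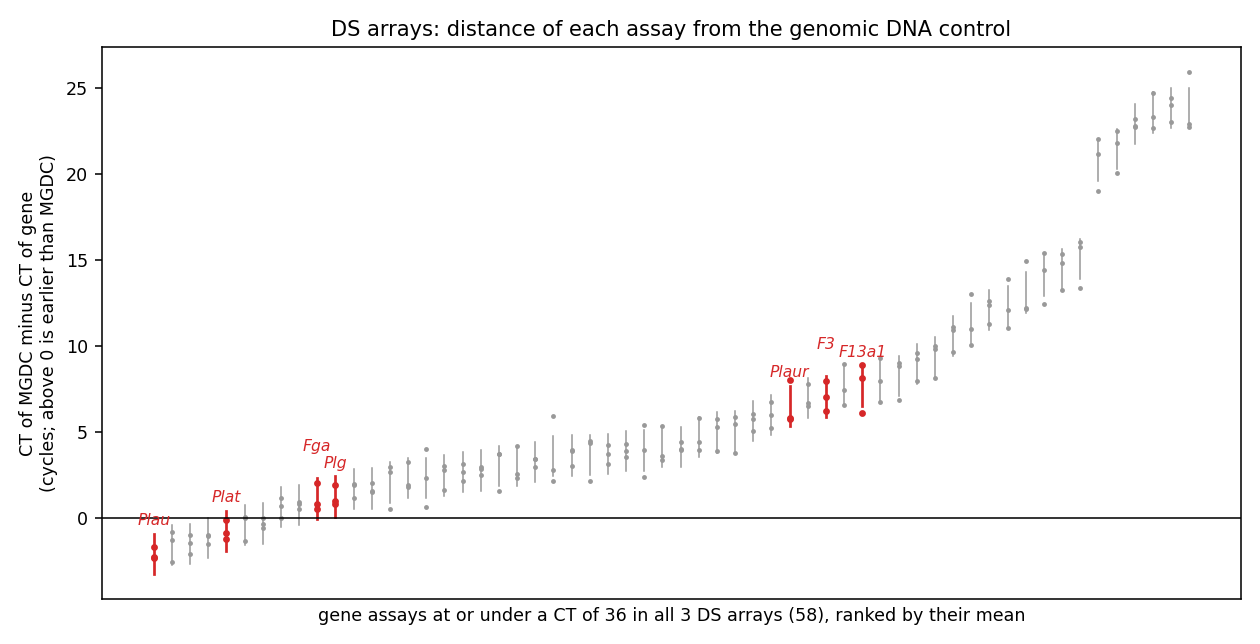
CT of the genomic DNA control MGDC minus CT of the gene, in cycles, for the 58 gene assays detected in all 3 DS arrays, ranked by their mean; points are the 3 DS arrays, bars the 95% interval of limma, red the clotting and plasminogen genes and grey the rest. Plau is the latest of the 58, Plat and Fga have intervals that cross 0, and F13a1, F3 and Plaur lie between 5.76 and 8.90 cycles before MGDC.

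Within the DS arrays the order by mean CT was F13a1, F3, Plaur, Plg, Fga, Plat and Plau, over a span of 9.78 cycles. CT values of different assays also carry their amplification efficiency, so this is an order of signal and not of transcript number. F13a1 and F3 differed by 0.64 cycles and F3 and Plaur by 0.54, with ranges that overlapped. Plaur and Plg were separated by 5.27 ± 1.63 cycles (SD over 3 arrays), the largest gap. Plg and Fga differed by only 0.12 ± 0.21 cycles and overlapped. Fga preceded Plat by 1.87 ± 1.23 cycles and Plat preceded Plau by 1.34 ± 0.30, without overlap. The exact permutation test of the 6 neighbouring pairs cannot pass 0.05, and its smallest two-sided p of 0.1 was reached by the 3 pairs without overlap.

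The genes did not share one ranking of the arrays. F3, Fga and Plg were earliest in DS replicate 3 and latest in replicate 2, F13a1 and Plaur were earliest in replicate 2, and Plat and Plau were earliest in replicate 1 and latest in replicate 3. MGDC was earliest in replicate 1 and latest in replicate 2. The mean CT over the 7 genes was 30.7, 30.6 and 30.6 in replicates 1, 2 and 3, so no DS array was early or late for the group as a whole. The SD of a gene over the DS arrays ran from 0.305 cycles for Plau to 1.03 for Plaur.

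The genes nearest to each of the 7 in level were found by the root mean square difference over the 6 arrays. Since the 7 genes and these neighbours stand at the cutoff in every control array, the distance compares their CT in the 3 DS arrays and shows no shared profile. F3 (0.185 cycles) and Plaur (1.03 cycles) were nearest to the integrin gene Itga1, and F13a1 to Rhoa (0.325 cycles), a small GTPase of the actin cytoskeleton. Plg (0.371 cycles) and Fga (0.511 cycles) were both nearest to Cd40lg. Plat was nearest to the collagen gene Col5a3 (0.349 cycles) and Plau to the matrix protease gene Mmp7 (0.348 cycles).

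The sign of the computed fold change of all 7 genes depended on the normalizing genes. With Hsp90ab1 alone, with Ccl7 and Egfr, or without normalization, the 6 calls were kept and 0 genes were lower. With the median CT of the assays detected in all 6 arrays as reference, 7 of 7 were called higher, Plau included (3.25), as were 52 of all 64 genes. Housekeeping genes moved the values in the other direction: Actb and B2m gave no CT in control and 11.55 to 13.05 and 19.89 to 22.04 in DS, and Gapdh gave none in any array. With the 5 housekeeping genes, F13a1 (2.45) and F3 (1.81) stayed higher, Plaur was not called (1.27, adjusted p = 0.0594, limma), and Fga, Plg, Plat and Plau were lower. With Actb and Gapdh all 7 were called lower. The median of all tested genes moved along, from 4.40 to −3.23 and −7.49. In control the 7 genes, Actb, B2m, Gapdh and Gusb all stand at the cutoff. Under these 2 sets the values of the 7 genes are therefore not bounds, and their direction cannot be told. What held under each normalizer was the order among the genes, because a normalizer shifts every gene of an array alike. The cutoff sets the size of each bound: with wells without CT set to 45 cycles, the log2 fold change ran from 9.29 for Plau to 18.44 for F3. Plau was called higher there (adjusted p = 8.64e-08, limma) and with a cutoff of 40 (4.29, adjusted p = 1.57e-06, limma), where 53 of 73 tested genes were called higher.

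**Figure D3:**
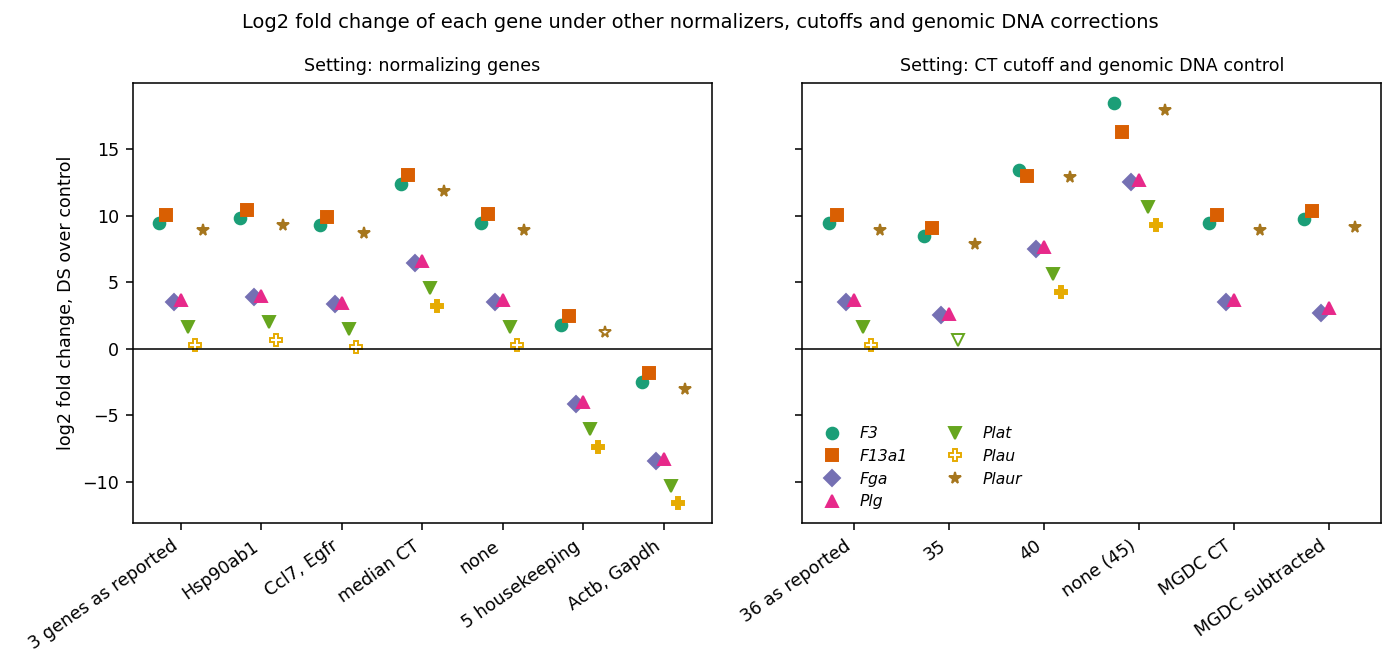
Log2 fold change of DS over control for the 7 genes under 7 choices of normalizer (left) and 6 choices of CT cutoff or genomic DNA correction (right); filled symbols passed an adjusted p of 0.05 in limma and open ones did not. All genes shift together with the normalizer and turn negative with Actb and Gapdh, where F13a1 is at −1.81 and Plau at −11.60, and the genes missing from the right panel had no detected value under that setting.

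Other genes of the array act beside plasmin and its receptor. Of 8 matrix proteases, cathepsins and Timp1, 6 were tested, of which 4 were higher in DS and 1 lower with the 3 normalizing genes, near the shares of 71.9% and 20.3% over all tested genes. Mmp9, a gelatinase, was higher by at least 7.41 on the log2 scale, Mmp2 by at least 6.30 and Ctsg by at least 1.21, and the collagen-digesting cathepsin gene Ctsk, detected in all 6 arrays, by 2.29, while the collagenase gene Mmp1a was lower by at least −12.69, with a CT of 22.43 to 24.01 in the control arrays and none in DS. Of 6 genes for vitronectin and for integrin chains that bind it, fibrinogen or uPAR, 4 were tested. Vitronectin also binds uPAR, and its gene Vtn was detected in control only, at 24.2 ± 0.449 (SD, n = 3), a change of at least −11.79. Itgav was higher (at least 1.96) and Itga5 lower (−3.11, adjusted p = 2.24e-04, limma), although Itga5 was not called against the median CT (−0.15, adjusted p = 0.724, limma). The bounds of Ctsg and Itgav are below the 2.36 by which MGDC moved at least, and those of Mmp9 and Mmp2 above it. Against MGDC in the DS arrays, Ctsg stood at a mean of −1.16 cycles and Itgav at −0.40, neither called. Of 4 growth factors that plasmin or uPA can activate or release, Fgf2 was higher (7.82), Hgf (at least −5.28) and Vegfa (−11.81) lower, and Tgfb1 was detected in no array. Under the 5 housekeeping genes 0 of these 13 tested genes were called higher and 10 lower, against 17 and 39 of all 64. Those of the 10 that stand at the cutoff in every control array, such as Ctsg and Itgav, have no bound there and show no direction. Mmp1a, Vtn, Hgf and Vegfa were lower under all 7 normalizers.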

How the data were processed

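The authors deposited a CT for each well and array, without normalization or cutoff; a well without CT is undetermined. They also deposited a ratio to the normalizing genes per gene, averaged over each group, which has no spread. A PCR array has no sequencing depth, so its precision is set by 3 arrays a group.

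From the deposited CT, values over 36 or undetermined were set to 36, each array's mean over Egfr, Ccl7 and Hsp90ab1 was taken off and the sign reversed. The 64 of 84 wound healing genes detected in at least 1 array were fitted with limma 3.58.1 in R 4.3.3 (lmFit, eBayes), two-sided, with Benjamini-Hochberg adjustment. A second limma fit, of the intercept, compared 58 gene assays with MGDC in the DS arrays. Both fits were tested on simulated data that held no cutoff and no shared reference well. The genes and the lists of neighbouring genes were chosen with earlier results of these data known. Named genes are the 7 genes, the control and normalizing wells, the gene nearest in level to each, and called genes and range ends of 3 fixed lists. Cell type markers, the other collagen genes, the housekeeping genes and Tgfb1 are named outside that rule. The alternatives were other normalizers, cutoffs, genomic DNA corrections, filters and tests, the deposited ratios, a replicate block and each array left out. Promoter sequences are from RefSeq. Some genes of the array are not reported here.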

Additional observations from a re-analysis of the deposited data

How the results depend on the processing

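With the 5 housekeeping genes as normalizers, 17 of the 64 genes were higher and 39 lower by limma, among them 2 and 4 of the 7 clotting and plasminogen genes; the median turned to −3.99 over the 7 and to −3.23 over all, and Fga (−4.12), Plg (−3.99), Plat (−5.99) and Plau (−7.33) reversed. With Actb and Gapdh, 10 genes were higher and 52 lower, and of the 7 genes 0 were higher (0 also before adjustment) and 7 lower: F3 −2.45, F13a1 −1.81, Fga −8.38, Plg −8.26, Plat −10.25, Plau −11.60 and Plaur −2.99, with medians of −8.26 over the 7 and −7.49 over all. Actb stands at the cutoff in control in both sets, so the values of the 7 genes there are not bounds and show no direction. Genes detected in all 6 arrays only left 16 genes, 8 higher and 6 lower, and none of the 7. The methods' test after Benjamini-Hochberg adjustment called 27 genes higher and 3 of the 7 (F3, Plg and Plat). Against the earliest MGDC value, 6 assays were later than MGDC, 2 of them among the 7 genes (Plat, −1.28, and Plau); against a margin of 1 cycle 1 assay was later; with a cutoff of 35, 0 of 54 assays and 0 of 6 genes were (0 also before adjustment, limma), since all 3 assays called later, Plau among them, have a DS array over 35 and leave the test; without cutoff 9 of 64 were. With each array left out in turn, 44 to 46 genes were higher, 13 lower, 6 of the 7 higher and 0 lower; 44 to 48 assays were earlier and 1 to 3 later than MGDC, 3 to 4 and 1 of the 7. Without DS replicate 3, 1 assay was later. Replicate numbers did not pair the arrays (correlation of deviations of same-numbered arrays over 17 assays 0.0832, 0.0506 and −0.199), and with a replicate block 6 of the 7 were called as before. Plat and Plau have no value where genomic DNA was corrected for, and Plau none at a cutoff of 35.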
